A study of Homo sapiens with 8 samples.

Results

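The VHL+ and VHL- 786-O renal cell carcinoma (RCC) cells kept under hypoxia were compared, on the 2 arrays of each, to describe which transcripts differ with VHL when oxygen is low. These are 4 of the 8 arrays of the series, chosen by their labels alone. VHL- cells are untransfected 786-O cells, and VHL+ cells are 786-O cells transfected with VHL. Both were kept for 24 h at 1% O2. The other 4 arrays, 2 of VHL- and 2 of VHL+ cells, come from the same culture time under normoxia and are used for the spread and for a side by side view. All lines share the origin of 786-O, which carries no functional VHL of its own, and the VHL- cells are labelled as having no transfection. A difference between the groups therefore cannot be told apart from one that the vector, the selection or the passage of the transfectants brought about. The labels call the 2 arrays of a group biological replicates, but do not say from which cultures they came, so p values measure the spread between these samples. Of 33297 transcript clusters on the array, 19460 carry 1 gene symbol, and these stand for 18417 genes, each read from the cluster of strongest mean signal.

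VHL is the subunit through which a cullin-based ubiquitin ligase recognises its substrates. It binds the α subunits of the hypoxia-inducible factors (HIF) once prolyl hydroxylases, which need oxygen, have modified them, and the bound subunits are degraded. Under hypoxia these hydroxylases slow down, so that HIFα can also escape in cells with VHL, while in RCC cells without VHL it is kept at any oxygen level.

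The arrays under hypoxia did not have the same median. The median log2 signal was 6.60 and 6.70 in the VHL- cells and 6.91 and 6.74 in the VHL+ cells. The log2 fold change of VHL+ against VHL- cells had a median of 0.18 over all genes, and it grew with signal from 0.14 in the tertile of genes with the lowest signal to 0.29 in that with the highest. After quantile normalization, which gives all 8 arrays the same distribution, the median was 0.01. Calls are therefore given for the values as deposited and after quantile normalization. At an adjusted p (limma, Benjamini-Hochberg) under 0.05, 2638 genes (14.3%) were higher and 316 (1.72%) lower in VHL+ cells as deposited, against 771 (4.19%) and 666 (3.62%) after quantile normalization. Genes that passed in both numbered 771 higher (4.19%) and 259 lower (1.41%), of which 234 and 86 differed at least 2-fold. The counts of list members given for hypoxia stand against these shares of all genes. Over all transcript clusters, 3437 were higher and 436 lower, and without the first VHL+ hypoxia array these numbers were 175 and 81. Without the second VHL+ hypoxia array they were 515 and 82, and without the first VHL- hypoxia array 1782 and 531. Markers of renal carcinoma epithelium were present, with a mean log2 signal over 9 genes such as PAX8, KRT8, KRT18 and VIM between 10.6 and 10.9 under hypoxia. Measured markers of other cell types, such as PTPRC of leukocytes and PECAM1 of endothelium, numbered 18. Of these, 14 lay under the array's median on all 4 hypoxia arrays, against 6586 of all 18417 genes. Among the 18, CD68 and COL1A1 had a mean signal above the median of all genes. None of the 18 passed the test as deposited or after quantile normalization.

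COL6A3, SLC38A5 and NID2 had the largest falls with VHL. COL6A3, the α3 chain of collagen VI, had log2 signals of 11.07 and 10.79 in VHL- cells and 6.74 and 6.36 in VHL+ cells. Its log2 fold change was -4.38 (SE 0.16, adjusted p = 9.73e-12). NID2, the basement membrane protein nidogen-2, had 10.10 and 9.98 in VHL- and 6.67 and 6.45 in VHL+ cells (log2 fold change -3.48, SE 0.14, adjusted p = 2.01e-11). MMP2, a gelatinase, had 10.94 and 10.87 in VHL- against 8.07 and 7.09 in VHL+ cells (log2 fold change -3.32, SE 0.21, adjusted p = 1.65e-08). The replicates of the VHL+ cells were 0.98 apart for MMP2, yet both lay far below the VHL- arrays. SLC38A5, an amino acid transporter, had a log2 fold change of -3.84, between those of COL6A3 and NID2. VCAM1, an adhesion molecule for leukocytes (-3.29), and ANPEP, a brush border aminopeptidase (-3.03), came after MMP2. SRPX, a secreted protein with sushi repeats (-2.85), EREG, the EGF receptor ligand epiregulin (-2.82), KRT19, a keratin of simple epithelia (-2.78), and COXFA4L3, a mitochondrial protein (-2.58), also fell. GNG4, a G protein γ subunit (-2.52), FBN1, the microfibril protein fibrillin-1 (-2.43), DDIT4, an inhibitor of mTORC1 (-2.37), DNAJC15, a mitochondrial cochaperone (-2.24), and SAA2, an acute-phase protein (-2.22), completed the 15 largest falls. The adjusted p without the first VHL+ hypoxia array was 0.0532 for VCAM1, 0.0585 for EREG, 0.0648 for SRPX, 0.0712 for DDIT4 and 0.189 for SAA2. Without the second, it was 0.0763 for SRPX and 0.0547 for SAA2.

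GSTP1, a glutathione transferase that conjugates electrophiles, had the largest rise with VHL. Its log2 signals were 7.39 and 7.96 in VHL- cells and 12.02 and 11.99 in VHL+ cells. The groups differed by 4.32 on the log2 scale (SE 0.18, adjusted p = 2.01e-11). RAB31, which directs vesicle traffic, had 6.41 and 6.62 in VHL- and 10.00 and 10.17 in VHL+ cells (log2 fold change 3.57, SE 0.15, adjusted p = 2.01e-11). In the VHL- cells its signal lay around the array median, and in the VHL+ cells well above it. FLG, the gene of filaggrin, had 6.98 and 7.80 against 11.00 and 10.25 (log2 fold change 3.24, SE 0.23, adjusted p = 8.01e-08). NIPAL2, a magnesium transporter-like membrane protein (2.94), CRYAB, a small heat shock protein (2.79), and TAGLN, the actin-binding protein transgelin (2.65), rose as well. MDGA2, an immunoglobulin-family surface protein (2.63), PLXDC2, a plexin domain membrane protein (2.53), KLHL13, an adaptor of a cullin-3 ubiquitin ligase (2.42), and BST2, the interferon-induced tetherin (2.27), were next. COL4A1, a collagen IV chain (2.25), MYL9, a myosin light chain (2.23), HCP5, a noncoding transcript of the MHC region (2.20), RBM23, an RNA-binding protein (2.17), and RHOF, a GTPase of filopodia (2.17), closed the 15 largest rises. Leaving out the first VHL+ hypoxia array gave an adjusted p of 0.0536 for KLHL13, 0.0663 for MYL9 and 0.115 for RBM23. Leaving out the second gave 0.0551 for CRYAB, 0.0512 for BST2, 0.0613 for MYL9 and 0.0894 for RBM23.

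**Figure D1:**
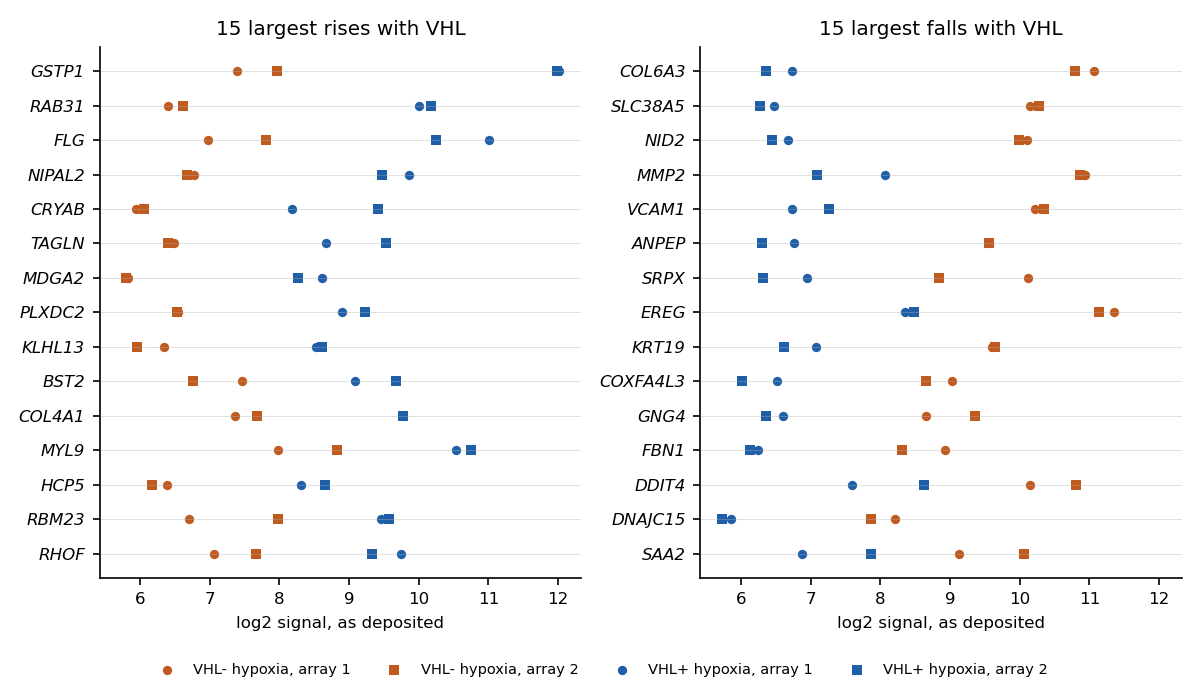
log2 signals as deposited (horizontal axis) of the 15 genes with the largest rise and the 15 with the largest fall with VHL under hypoxia, 1 point per array (orange VHL-, blue VHL+). In each gene shown the VHL- and VHL+ arrays do not overlap, which the rule for choosing them required, from RHOF at a log2 fold change of 2.17 to GSTP1 at 4.32 and from SAA2 at -2.22 to COL6A3 at -4.38.

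Each of the genes with the largest changes passed the test in the same direction under normoxia. The group means there come from other arrays, but both tests share the estimate of the spread and the same cells. Under normoxia 584 genes (3.17%) were higher and 626 (3.4%) lower in VHL+ cells as deposited. Of the 259 genes lower under hypoxia both as deposited and after quantile normalization, 214 (82.6%) were so under normoxia as well, and these are 46.0% of the 465 such genes there. Of the 771 genes higher under hypoxia, 361 (46.8%) were also higher under normoxia, which is 80.4% of the 449 there, and none went the opposite way. These shares rest on passing in both sets of values, which trimmed falls and rises unequally under hypoxia. All 771 rises after quantile normalization also passed as deposited, but only 259 of 666 falls did. After quantile normalization alone, 743 genes were higher and 662 lower under normoxia. The shares of falls and rises are therefore not compared with each other. COL6A3 had log2 fold changes of -4.38 under hypoxia and -4.25 under normoxia, and GSTP1 of 4.32 and 3.94.

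No gene passed the test of a difference between the VHL effects under hypoxia and under normoxia (0 of 18417, limma), although 1076 had an unadjusted p under 0.05 as deposited and 478 after quantile normalization. The genes with the smallest p are given here by value only, and were chosen after their values were seen. In NDRG1, a HIF target, the log2 fold change was -0.26 under hypoxia and -1.47 under normoxia, which is a difference of 1.21 (SE 0.20, adjusted p = 0.0995). APOL1, an apolipoprotein of innate immunity, had 1.00 under hypoxia and -0.42 under normoxia (adjusted p of the difference = 0.0995), and EFHD2, a calcium-binding protein, 1.08 and -0.07 (adjusted p = 0.0995). EDN2, the vasoconstrictor endothelin-2, had log2 signals of 6.98 and 7.51 in VHL- and 9.71 and 8.76 in VHL+ cells under hypoxia, and rose by 2.00 (SE 0.23, adjusted p = 2.14e-05). Its log2 fold change under normoxia was 0.18, and the difference had an adjusted p of 0.118. For the chemokine genes CXCL1 (-1.88 under hypoxia and -3.32 under normoxia) and CXCL8 (-1.42 and -3.36) the adjusted p was 0.136 and 0.170. After quantile normalization the adjusted p of each of these differences was 1.00. Over all transcript clusters, 2 without a single symbol had a higher VHL effect under hypoxia as deposited and none after quantile normalization. This count ran from 0 without the first VHL+ hypoxia array to 193 without the second VHL- hypoxia array.

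Among the genes of oxygen sensing, VHL itself checks the labels. It had log2 signals of 8.23 and 8.51 in VHL- cells and 9.08 and 9.16 in VHL+ cells under hypoxia, and rose by 0.75 (SE 0.14, adjusted p = 0.00211 as deposited and 0.0407 after quantile normalization). Both VHL+ arrays were higher than both VHL- arrays as deposited. The same held for 9737 of 18417 genes, so this order alone does not set VHL apart. HIF1A, which encodes HIF1α, had 10.39 and 10.40 in VHL- and 8.32 and 8.44 in VHL+ cells. It fell by 2.02 on the log2 scale (SE 0.14, adjusted p = 4.56e-08), and its log2 fold change under normoxia was -1.95. EPAS1, which encodes HIF2α, had 9.48 and 10.04 against 9.62 and 9.20, and these arrays overlap (log2 fold change -0.34, SE 0.18, adjusted p = 0.252). ARNT2, a partner of HIFα, fell by 0.85 on the log2 scale as deposited (adjusted p = 0.0105, and 0.0558 after quantile normalization), while its relative ARNT had a log2 fold change of 0.29 (adjusted p = 0.245) and the inhibitory HIF3A 0.13. The prolyl hydroxylase genes EGLN1 and EGLN3 had log2 fold changes of 0.22 and -0.21, the asparaginyl hydroxylase HIF1AN 0.10, the hydroxylase P4HTM 0.27 and the coactivator competitor CITED2 0.06, none past the test. Of the other ligase subunits, RBX1 rose by 0.45 (adjusted p = 0.0364, and 0.237 after quantile normalization), and CUL2, ELOB and ELOC had 0.25, 0.29 and 0.33 with adjusted p from 0.141 to 0.306. EGLN2 has no cluster with a single symbol here. The adjusted p of VHL and ARNT2 was 0.0787 and 0.208 without the first VHL+ hypoxia array and 0.0729 and 0.172 without the second. That of RBX1 was 0.243 and 0.0724 without these arrays, 0.275 without the first VHL- hypoxia array and 0.0666 without either VHL- normoxia array.

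HIF target genes lay lower in VHL+ than in VHL- cells under hypoxia, relative to all genes, but few passed the test. Of 39 measured targets, 6 fell and 1 rose as deposited, and 7 fell and none rose after quantile normalization, where 1.72% and 3.62% of all genes fell. Their median log2 fold change was -0.14 against 0.18 over all genes, and -0.41 against 0.01 after quantile normalization. Under normoxia 21 of the 39 fell as deposited, against 3.4% of all genes there. The median of the targets was -0.66, against -0.03 over all genes. Yet the difference between the oxygen conditions passed for none of the 39. DDIT4 had log2 signals of 10.14 and 10.81 in VHL- and 7.59 and 8.63 in VHL+ cells, a fall by 2.37 on the log2 scale (SE 0.27, adjusted p = 2.34e-05). VEGFA, the angiogenic growth factor, had 11.11 and 10.73 against 9.82 and 9.97 (log2 fold change -1.03, SE 0.20, adjusted p = 0.00307). LOX, which cross-links collagen, had 9.48 and 7.85 against 6.35 and 6.24 (log2 fold change -2.37, SE 0.38, adjusted p = 0.000595). None of these 3 genes had overlapping arrays, although the 2 VHL- arrays of LOX differed by more than any pair of the VHL+ arrays of the 3 genes. Both VHL+ arrays lay below both VHL- arrays in 20 of the 39 targets and in 1002 of all 18417 genes as deposited. HILPDA, a protein associated with lipid droplets (-1.14), ADM, the vasodilator adrenomedullin (-0.74), and STC2, a stanniocalcin (-0.69), fell too. TGFA, an EGF receptor ligand, rose by 0.73. The calls of LOX, HILPDA and TGFA did not hold after quantile normalization (adjusted p = 0.0743, 0.0812 and 0.226). AK4, BNIP3L and LOXL2 passed only after it, with log2 fold changes of -0.60, -0.59 and -0.52. The glucose transporter gene SLC2A1 had 12.63 and 12.71 against 12.61 and 12.47 (log2 fold change -0.13, adjusted p = 0.608) under hypoxia, and fell by 1.08 under normoxia. PGK1, PDK1 and CA12, also HIF targets, had log2 fold changes of 0.02, 0.28 and -0.14 under hypoxia, and of these CA12 passed under normoxia, where it fell by 1.00. The adjusted p of the 7 called targets ran from 0.0712 for DDIT4 to 0.378 for HILPDA without the first VHL+ hypoxia array. Without the second, DDIT4 passed and the others ran from 0.111 for VEGFA to 0.172 for HILPDA. STC2 did not pass without the first VHL- hypoxia array (0.0502), nor ADM and HILPDA without the second (0.0649 and 0.122).

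**Figure D2:**
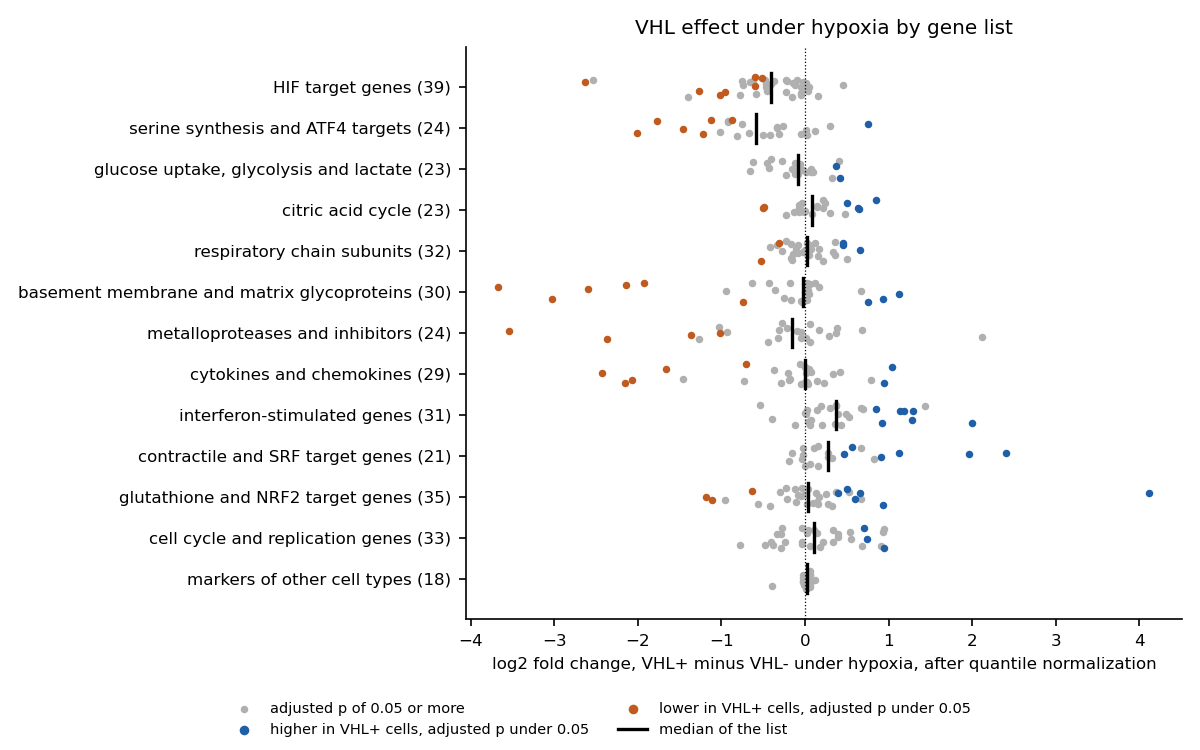
log2 fold change of VHL+ against VHL- cells under hypoxia after quantile normalization (horizontal axis) for each measured member of 13 gene lists (number in brackets), with the list's median as a bar and color for an adjusted p under 0.05. The members of the HIF target and ATF4 lists lie mostly left of 0, with medians of -0.41 and -0.59, and those of the interferon list mostly right of it, with a median of 0.37.

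HIF binds DNA at sites with the core ACGTG or GCGTG. To show where these letters stand, the 250 bases before the start of the genes were searched on both strands, in RefSeq sequence of the build GRCh38.p14. They occur in 43.1% of 27305 such windows, in 51.1% of those of 14239 genes on the array, and in 23 of the 30 windows of the measured HIF targets (76.7%). Of the 6 targets that fell as deposited, 4 have a window in the table and all 4 hold the letters, while HILPDA and VEGFA have none there. The riser TGFA has a window without them, and so has GSTP1, the largest rise. The windows of the 4 genes are printed because these targets fell together, with each core or its reverse complement in capitals. All run 5′ to 3′ on the strand of the gene. Positions are those of the first base of a core, with -1 as the last base before the start. STC2 has cores at -235, -231 and -222, of which the first 2 share 1 base.
DDIT4, chr10:72273674-72273923, + strand: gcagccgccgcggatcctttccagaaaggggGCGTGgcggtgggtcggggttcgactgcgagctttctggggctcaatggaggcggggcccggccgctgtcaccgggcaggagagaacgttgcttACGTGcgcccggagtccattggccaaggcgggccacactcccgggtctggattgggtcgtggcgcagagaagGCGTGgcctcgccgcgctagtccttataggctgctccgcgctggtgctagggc
ADM, chr11:10304823-10305072, + strand: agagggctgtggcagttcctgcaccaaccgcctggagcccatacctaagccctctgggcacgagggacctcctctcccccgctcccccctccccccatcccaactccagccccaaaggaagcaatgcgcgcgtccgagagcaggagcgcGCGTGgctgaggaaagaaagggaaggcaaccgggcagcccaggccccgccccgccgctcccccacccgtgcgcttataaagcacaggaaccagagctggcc
LOX, chr5:122078260-122078509, - strand: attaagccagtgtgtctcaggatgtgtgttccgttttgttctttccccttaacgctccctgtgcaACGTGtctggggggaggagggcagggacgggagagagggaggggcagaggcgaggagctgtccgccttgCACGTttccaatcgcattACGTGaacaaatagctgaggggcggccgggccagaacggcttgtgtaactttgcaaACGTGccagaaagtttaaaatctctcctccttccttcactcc
STC2, chr5:173328415-173328664, - strand: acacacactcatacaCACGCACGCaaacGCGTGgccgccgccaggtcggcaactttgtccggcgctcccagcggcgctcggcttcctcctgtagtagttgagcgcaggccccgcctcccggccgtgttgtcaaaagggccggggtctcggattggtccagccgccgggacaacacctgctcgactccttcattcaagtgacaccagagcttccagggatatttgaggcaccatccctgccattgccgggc
DDIT4 has cores at -219, -125 and -53, and ADM has 1, at -101. LOX has 4, at -185, -116, -98 and -42. A match of these letters is a description of the window and not a measured binding site.

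Matrix genes went both ways with VHL. Of 20 collagen genes, 4 rose and 3 fell as deposited. The collagen IV chains COL4A1 (7.37 and 7.68 in VHL- against 9.77 and 9.77 in VHL+ cells) and COL4A2 (7.73 and 8.05 against 9.68 and 9.86), which together form the most common network of basement membranes, rose by 2.25 and 1.88 on the log2 scale (adjusted p = 5.57e-08 and 7.57e-07). COL12A1, a collagen of fibril surfaces, rose by 1.21 and COL4A5 by 0.58. The 3 chains of collagen VI fell (COL6A3 -4.38, COL6A1 -1.10 and COL6A2 -0.76). The call of COL6A1 did not hold after quantile normalization (adjusted p = 0.129). Of 30 basement membrane and matrix glycoprotein genes, 4 rose and 7 fell as deposited, and 3 rose and 6 fell after quantile normalization. NID2, SRPX and FBN1 were joined by HAS2, a hyaluronan synthase (-1.96), CTHRC1 (-1.69), EFEMP1 (-0.70, adjusted p = 0.0576 after quantile normalization) and LTBP1 (-0.60). THBS1, the adhesive glycoprotein thrombospondin-1 (1.28), VCAN, the proteoglycan versican (1.16), LAMA5, a laminin chain (1.02), and HSPG2, the proteoglycan perlecan (0.95, adjusted p = 0.0825 after quantile normalization), rose. Fibronectin (FN1) had a log2 fold change of 0.10 and NID1, the other nidogen, 0.08. Among 15 collagen-modifying enzymes, LOX and PCOLCE2, an enhancer of procollagen processing (-1.07), fell, and LOXL1 rose by 0.76 as deposited only (adjusted p = 0.102 after quantile normalization). When the first VHL+ hypoxia array was left out, COL12A1, COL6A2, COL4A5, COL6A1, SRPX, LTBP1, HAS2, HSPG2, VCAN, EFEMP1, LOX and LOXL1 did not pass (adjusted p from 0.0648 to 0.472). Without the second, these genes other than COL4A5 did not pass either (0.0726 to 0.176 with LOX at 0.115). COL6A1 also failed without the first VHL- hypoxia array (0.0559) and LTBP1 without the second (0.0587).

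MMP2 and ADAM12 had the largest falls among the proteases that cleave matrix. Of 24 metalloprotease and inhibitor genes, 5 fell and 5 rose as deposited, and 4 fell and none rose after quantile normalization. MMP2 (-3.32), ADAM12 (-2.15) and the collagenases MMP13 (-1.23) and MMP1 (-0.78) fell in both, and ADAMTS5 (-0.84) as deposited only. ADAM12 had log2 signals of 9.39 and 9.35 in VHL- and 7.45 and 6.98 in VHL+ cells. MMP7, matrilysin, had the largest rise of the list as deposited, with 7.41 and 9.78 in VHL- and 10.52 and 11.41 in VHL+ cells (log2 fold change 2.37, SE 0.64, adjusted p = 0.0203). Its VHL- arrays were 2.37 apart on the log2 scale, as far as the groups, and its adjusted p after quantile normalization was 0.306. The other rises, MMP16 (0.88), TIMP2 (0.64), MMP15 (0.59) and ADAM9 (0.55), had adjusted p from 0.179 to 0.284 after quantile normalization. MMP14 and MMP9 had log2 fold changes of -0.68 and -0.12, below the test. Among 11 serpin and plasminogen system genes, SERPINB9 (-1.76) and SERPINA1, α1-antitrypsin (-1.05), fell and SERPINE2 rose by 0.60 (adjusted p = 0.324 after quantile normalization). Leaving out the first VHL+ hypoxia array ended the calls of MMP1, ADAMTS5, TIMP2, MMP15, ADAM9, MMP7, MMP16, SERPINA1 and SERPINE2 (adjusted p from 0.0791 to 0.522). Leaving out the second ended these calls except that of TIMP2 (0.0652 to 0.259), and leaving out the first VHL- hypoxia array those of ADAMTS5, ADAM9, MMP15 and SERPINE2 (0.0781 to 0.311).

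Adhesion molecules, epithelial and mesenchymal markers changed gene by gene. Of 22 integrin and adhesion genes, 3 fell and 4 rose. VCAM1 (-3.29) fell most, and L1CAM, a neural cell adhesion molecule, rose by 1.94 (6.45 and 6.36 in VHL- against 8.25 and 8.45 in VHL+ cells, SE 0.14, adjusted p = 9.49e-08). ITGA6, a laminin receptor subunit, rose by 1.37 and ITGA2, a collagen receptor subunit, fell by 1.21 as deposited (adjusted p = 0.102 after quantile normalization). Of 14 epithelial markers KRT19 (-2.78) and EPCAM (-0.77) fell and CDH16 rose by 0.61 as deposited. CDH1, the gene of E-cadherin, had a log2 fold change of 0.27 (not past the test). Of 13 mesenchymal markers and EMT factors, CDH11 (-1.68), LEF1 (-1.66), SNAI2 (-0.94) and TCF4 (-0.75) fell and S100A4 rose by 0.55, and after quantile normalization LEF1 and TCF4 passed. VIM (vimentin) had a log2 fold change of 0.06 and CDH2 (N-cadherin) -0.41. Among 13 EGF receptor ligand and receptor genes, EREG (-2.82) and LRIG1, a feedback inhibitor (-1.63), fell. HBEGF, another ligand, had 8.52 and 7.45 in VHL- and 9.90 and 10.00 in VHL+ cells, a rise by 1.97 whose adjusted p became 0.0643 after quantile normalization, and EGFR had -0.02. After quantile normalization the adjusted p was 0.268 for CDH16, 0.163 for CDH11, 0.157 for SNAI2 and 0.0921 for S100A4. Without the first VHL+ hypoxia array the genes of this group that failed were VCAM1, ITGA2, ITGA6, EPCAM, CDH16, CDH11, LEF1, SNAI2, TCF4, S100A4, EREG, LRIG1 and HBEGF (0.0532 to 0.296). Without the second they were ITGA2, EPCAM, CDH16, CDH11, LEF1, SNAI2, TCF4, LRIG1 and HBEGF (0.0579 to 0.259), CDH16 also without the first VHL- hypoxia array (0.135) and S100A4 without the second (0.0542).

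Several inflammatory genes were lower in VHL+ cells. Of 29 cytokine and chemokine genes, 4 fell and 5 rose as deposited, and 5 fell and 2 rose after quantile normalization. IL6 had log2 signals of 10.32 and 10.22 in VHL- and 8.29 and 7.90 in VHL+ cells (log2 fold change -2.18, SE 0.17, adjusted p = 2.47e-07). The neutrophil chemokine genes CXCL1 (-1.88), CXCL5 (-1.82) and CXCL8 (-1.42) fell as well, and CXCL2 passed after quantile normalization only (-0.70). CXCL16 (1.23), IL18 (1.15) and the interferon-induced CXCL10 (0.97, adjusted p = 0.0757 after quantile normalization) rose, and CCL20 (0.58) and CCL5 (0.54) as deposited only. Of 17 NF-kB subunits and feedback genes, SOD2 (-0.85) and IRAK2 (-0.58, adjusted p = 0.114 after quantile normalization) fell, ICAM1 rose by 0.88 as deposited (0.343), and the subunits NFKB1, NFKB2, REL, RELA and RELB lay between -0.15 and 0.36 without passing. In the acute-phase and complement list, 5 of 20 genes fell and 1 rose. Ceruloplasmin (CP) had 9.17 and 10.47 in VHL- and 7.41 and 7.79 in VHL+ cells (log2 fold change -2.22, SE 0.33, adjusted p = 0.000272), and SAA2 (-2.22) and PTX3 (-0.75) fell in both sets of values. CFI, complement factor I, rose by 1.86. SAA1 and SAA2 are near-identical copies, and the specificity of their probes was not checked. Without the first VHL+ hypoxia array CXCL5, CXCL8, CCL20, CCL5, SOD2, IRAK2, ICAM1, CP, SAA2, PTX3 and CFI did not pass (0.0803 to 0.456). Without the second the same was true of these genes and CXCL10 (0.0506 to 0.269), without the first VHL- hypoxia array of CCL20, CCL5 and IRAK2 (0.196 to 0.415), and without the second of PTX3 (0.139).

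Interferon-stimulated genes lay mostly higher in VHL+ cells under hypoxia, and none of them passed the test as lower. Of 31 measured genes 18 rose as deposited and 7 after quantile normalization, where 14.3% and 4.19% of all genes did. The median of the list was 0.58 as deposited and 0.37 after quantile normalization, and it was 0.15 and 0.20 in these sets of values under normoxia. Under normoxia 7 of the 31 were higher in either set, the same number as under hypoxia after quantile normalization. One more count there, as deposited, was 1 lower member. Of all 18417 genes under normoxia, 584 were higher as deposited and 743 after quantile normalization, and 626 were lower as deposited. BST2 had 7.47 and 6.75 in VHL- and 9.09 and 9.68 in VHL+ cells. XAF1, a proapoptotic factor, had 6.19 and 6.19 against 7.63 and 7.74 (log2 fold change 1.49, SE 0.15, adjusted p = 4.40e-06), and IFI27 had 6.81 and 6.74 against 7.99 and 8.41 (1.43, SE 0.15, adjusted p = 9.82e-06). The VHL- arrays of XAF1 lay under the array median and its VHL+ arrays above it. IFITM1, IFITM2 and IFITM3, membrane proteins that block viral entry, rose by 1.66, 1.55 and 1.19, IFIT1 by 1.37 and the deconjugating protease USP18 by 1.10. OAS1, OAS2 and OAS3, which make the activator of RNase L, rose by 0.90, 0.66 and 0.67 as deposited and had adjusted p from 0.0651 to 0.133 after quantile normalization. IFITM1 had 0.0563 after it. MX1 and RSAD2, often among the most inducible of these genes, had log2 fold changes of 0.03 and 0.14, with signals from 5.90 to 6.46 that stayed below the median of every hypoxia array. The transcription factors went from IRF9, which rose by 0.64 as deposited (adjusted p = 0.398 after quantile normalization), to IRF7 (0.21) and IRF1 (-0.13), which did not pass. The probes of the IFITM and OAS genes were not checked for specificity between these close relatives. The difference from the effect under normoxia passed for none of the 31, the smallest adjusted p being 0.552 for OAS1. Of the 18 calls, 9 were lost without the first VHL+ hypoxia array (adjusted p from 0.0523 for OAS2 to 0.320 for RIGI). Without the second 14 were lost (0.0512 for BST2 to 0.153 for RIGI), and only IFI27, IFITM2, USP18 and XAF1 passed without each of the 8 arrays in turn. Without the first or the second VHL- hypoxia array OASL did not pass (0.109 and 0.0815), nor did OAS3 and IFIT2 without the first (0.0915 and 0.196) or RIGI without the second (0.0877), and OASL had 0.0520 without either VHL- normoxia array.

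**Figure D3:**
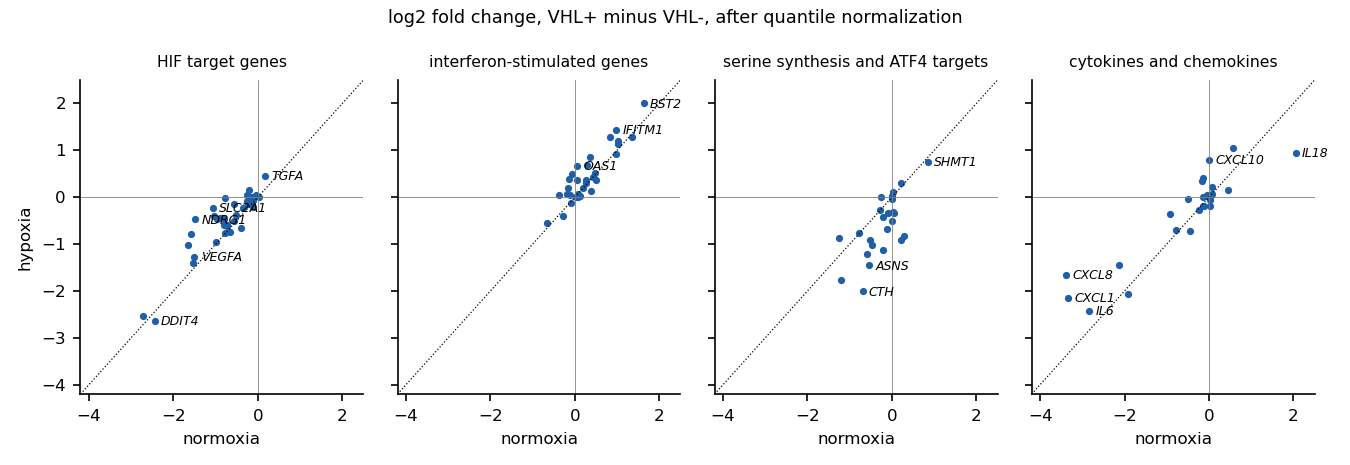
log2 fold change with VHL under hypoxia (vertical axis) against that under normoxia (horizontal axis), both after quantile normalization, 1 point per member of 4 gene lists, with the line of equal change dotted. CXCL8, CXCL1 and NDRG1 lie above the line and CTH (-2.01 under hypoxia) and ASNS (-1.45) below it, and no point's distance from the line passed the test.

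TAGLN and MYL9 had the largest rises among contractile genes and targets of the serum response factor (SRF). Of 21 measured genes, 10 rose and none fell as deposited, and 6 rose after quantile normalization, against 14.3% and 4.19% of all genes, and the others did not pass. TAGLN had 6.49 and 6.40 in VHL- and 8.66 and 9.53 in VHL+ cells (log2 fold change 2.65, SE 0.19, adjusted p = 9.49e-08). The VHL+ arrays were 0.87 apart and both above the VHL- arrays by over 2 on the log2 scale. MYL9 rose by 2.23, ANKRD1, a transcriptional cofactor and YAP target, by 1.36, ACTA2, smooth muscle actin, by 1.17, the calponin gene CNN2 by 0.80 and TPM4 by 0.68. CCN1 (1.08), CCN2 (0.94), VCL (0.51) and CNN3 (0.51) rose as deposited only, with adjusted p from 0.156 to 0.365 after quantile normalization. SRF itself (0.24) and its cofactor gene MYOCD (0.10) did not pass. Only TAGLN and CNN2 passed without the first VHL+ hypoxia array (0.0511 to 0.462 for the others), and without the second only TAGLN, ANKRD1 and CCN2 did (0.0613 to 0.260). CCN1 and CNN3 failed without the first VHL- hypoxia array (0.183 and 0.553) and VCL without the second (0.0933).

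PDK3 and PFKM of glucose metabolism and ECHS1, IDH2, IDH3G and DLST of mitochondrial metabolism rose in both sets of values. Of 23 genes of glucose uptake, glycolysis and lactate, 4 rose and none fell as deposited, near the share of all genes (14.3%), and 2 rose after quantile normalization (4.19%). Their median was 0.05 as deposited. PDK3 rose by 0.69 and PFKM by 0.64, and GPI (0.64) and LDHB (0.49) as deposited only (adjusted p = 0.219 and 0.127 after quantile normalization). The glycolytic genes TPI1, ALDOA, ENO2, PKM and LDHA had log2 fold changes of 0.05, 0.35, -0.15, 0.07 and 0.15, none past the test. Of 23 genes of the citric acid cycle list, 8 rose as deposited (14.3% of all genes), and 4 rose and 2 fell after quantile normalization (4.19% and 3.62%). ECHS1, an enoyl-CoA hydratase of fatty acid oxidation, had 8.80 and 9.20 in VHL- and 10.12 and 10.13 in VHL+ cells (log2 fold change 1.12, SE 0.15, adjusted p = 0.000126). IDH2 (0.91), IDH3G (0.89) and DLST (0.78) are enzymes of the oxidative steps from isocitrate to succinyl-CoA. SUCLA2 (0.75), SDHD (0.57), IDH1 (0.51) and citrate synthase, CS (0.47), had adjusted p from 0.112 to 0.564 after quantile normalization. FAH, of tyrosine breakdown (-0.49), and ACO1, the iron-responsive aconitase (-0.50), were the falls after it, and had -0.23 each as deposited. SDHA had 0.38 (not past the test). Of 32 respiratory chain subunit genes 7 rose as deposited (14.3% of all genes), led by NDUFS1 of complex I (0.94), and 3 rose after quantile normalization (NDUFS1, COX5B and NDUFB3), when UQCRC1 (-0.53) and NDUFB8 (-0.31) fell. All 19 calls as deposited were lost without the first or the second VHL+ hypoxia array or both (adjusted p from 0.0502 for IDH2 to 0.473 for SDHD). Without the first VHL- hypoxia array LDHB, PFKM, GPI, CS, IDH1, COX5B and NDUFB10 did not pass (0.0751 to 0.368), without the second IDH1 and SDHD (0.0532 and 0.147), and without either VHL- normoxia array CS (0.0541).

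GSTP1 rose most among glutathione genes, and CTH and ALDH1L2 had the largest falls among genes of serine synthesis and the amino acid response. Of 35 glutathione and NRF2 target genes, 11 rose and 2 fell as deposited (14.3% and 1.72% of all genes), 6 rose and 3 fell after quantile normalization (4.19% and 3.62%), and the others did not pass. Next to GSTP1, the transferases GSTT1 (1.21), MGST2 (0.88) and MGST3 (0.85), glutathione synthetase, GSS (0.66), and GPX3, a secreted peroxidase (0.71), rose in both sets. GSTM3 (-1.01) and SOD2 fell, and NFE2L2, the gene of NRF2, rose by 0.81 as deposited (adjusted p = 0.0580 after quantile normalization). Of NRF2's inducible targets NQO1, GCLM and TXNRD1 had log2 fold changes of 0.29, 0.22 and -0.28, below the test. Of 24 serine synthesis and ATF4 target genes, 6 fell and 2 rose as deposited (1.72% and 14.3% of all genes), and 6 fell and 1 rose after quantile normalization (3.62% and 4.19%), with a median of -0.32 as deposited and -0.59 after quantile normalization, the lowest of the 34 lists after it. CTH, which makes cysteine from cystathionine, had 9.03 and 9.09 in VHL- and 7.22 and 7.36 in VHL+ cells (log2 fold change -1.77, SE 0.26, adjusted p = 0.000212). ASNS, asparagine synthetase, had 9.07 and 9.37 against 7.97 and 8.08 (log2 fold change -1.19, SE 0.18, adjusted p = 0.000382). Neither gene had overlapping arrays, and both lacked a call under normoxia (-0.75 and -0.58, adjusted p = 0.125 and 0.0902). Both VHL+ arrays lay below both VHL- arrays in 13 of the 24 genes and in 1002 of all 18417 genes as deposited. ALDH1L2, a mitochondrial folate enzyme (-1.61), PCK2 (-0.95), the stress factor DDIT3 (-0.86) and PSAT1 of serine synthesis (-0.65, adjusted p = 0.0805 after quantile normalization) fell, the cytosolic SHMT1 rose by 1.02, and ATF5, a related factor, rose by 0.55 as deposited (adjusted p = 0.527 after quantile normalization). ATF4 itself had a log2 fold change of -0.03 and PHGDH 0.18. The test of a difference from the VHL effect under normoxia passed for none of the list (adjusted p of the difference = 0.651 for CTH, ASNS and PSAT1). GSTP1 was the only one of these called genes to pass without each array in turn. Without the first VHL+ hypoxia array the others had adjusted p from 0.0504 for MGST3 to 0.502 for PSAT1, and without the second GPX3, MGST2 and MGST3 passed and the rest of those named had 0.0519 for ALDH1L2 to 0.177 for PSAT1. Without the first VHL- hypoxia array GSS had 0.0770, and without the second PSAT1 had 0.108.

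Other lists gave smaller counts. Among 22 genes of lipid droplets and lipid uptake, CPT1A, which takes fatty acids into mitochondria, rose by 1.62 (6.28 and 6.33 in VHL- against 7.91 and 7.95 in VHL+ cells, SE 0.13, adjusted p = 3.36e-07), and PLIN3 (0.98) and APOL1 (1.00) rose. G0S2, an inhibitor of fat breakdown, fell by 1.66 and FABP6 by 0.99. Of 20 cholesterol and fatty acid synthesis genes 3 rose as deposited, of which ACSL1 (1.26) passed in both sets, when ACACA (-0.56) fell after quantile normalization. Of 23 amino acid transporters SLC38A5 stood apart with -3.84, and SLC6A9 rose by 0.63 in both sets. In the TGF-β list LTBP1 (-0.60) and the receptor TGFBR2 (-0.51) fell in both sets, of 25 genes. STC1, a stanniocalcin, fell by 2.10 (8.46 and 8.53 in VHL- against 6.59 and 6.20 in VHL+ cells) and was with STC2 the only fall among 13 genes of the IGF binding protein list as deposited. Of 18 kidney tubule genes ANPEP fell by 3.03 and MME by 0.99 (adjusted p = 0.158 after quantile normalization), and ENPEP, also an aminopeptidase of the brush border, rose by 2.13 (8.36 and 8.56 against 10.24 and 10.95). HOXD10 (-1.72) and HOXD11 (-0.46) fell among 21 HOX genes, and NLRC5, the activator of MHC class I genes, rose by 0.61 among 14 genes of MHC class I antigen processing. Of these 14 genes, 2 rose and none fell as deposited, and 1 rose and 2 fell after quantile normalization. Of 33 cell cycle genes 13 rose as deposited and 3 after quantile normalization, RB1 (1.20), AURKB (1.01) and CDK1 (0.99), and of 34 RAB GTPases 14 and 2, RAB31 and RAB8A (0.68). Of all genes 14.3% rose as deposited and 4.19% after quantile normalization, and whether the counts of these lists differ from those shares was not tested. None of 9 reference genes passed as deposited, ACTB having 0.09 and GAPDH -0.01, and TBP passed after quantile normalization (-0.54). Without the first VHL+ hypoxia array ACSL1, APOL1, SLC6A9, LTBP1, TGFBR2, STC2, MME, HOXD11, NLRC5, RB1, AURKB, CDK1 and RAB8A did not pass (0.0532 to 0.252). Without the second the same held but for NLRC5, RB1 and AURKB, and ENPEP failed too (0.0537 to 0.241). Without the first VHL- hypoxia array STC2, TGFBR2, MME and HOXD11 had 0.0502 to 0.122, without the second LTBP1 and HOXD11 had 0.0587 and 0.106, and without either VHL- normoxia array HOXD11 had 0.0576.

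MIR21, the gene of a microRNA that is abundant in carcinomas, was singled out after its values were seen, because it can be shown by sequence. Its cluster had log2 signals of 9.96 and 9.62 in VHL- and 7.81 and 7.65 in VHL+ cells under hypoxia, a fall by 2.06 (SE 0.15, adjusted p = 1.16e-07), and a log2 fold change of -2.20 under normoxia. The signal is that of the transcript cluster and not of the processed microRNA, whose level was not measured. The mature microRNA (RefSeq, GRCh38.p14, chr17:59841273-59841294, + strand) has its seed, bases 2 to 8, in capitals.
hsa-miR-21-5p: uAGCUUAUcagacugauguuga

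Where the changed genes lie in the genome was not even. Genes with a mean signal above the median of all genes (9182 of them) were put in the gene order of the RefSeq table and cut into 307 blocks of 29 to 34 neighbours, and the median log2 fold change of each block was taken after quantile normalization. This view was added after the values were seen and carries no test. On chromosome 13, 140 of 150 such genes lay above 0, with a median of 0.62, and 92 passed as higher and none as lower. All 5 blocks of that chromosome had medians from 0.52 to 0.72, while no block elsewhere exceeded 0.37. In each array, the median deviation of these 150 genes from their mean over all arrays was -0.30 and -0.29 in VHL- cells under hypoxia and 0.33 and 0.29 in VHL+ cells under hypoxia. Under normoxia it was -0.33 and -0.33 in VHL- and 0.27 and 0.32 in VHL+ cells, so that all 4 VHL+ arrays stood apart from all 4 VHL- arrays.

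Other runs of neighbours were lower. On chromosome 17 the genes from ANKRD13B to AP2B1 had a median of -0.53, with none of 30 above 0 and 16 passing as lower, and the blocks on either side, from WSB1 to GIT1 and from C17orf50 to MED1, had -0.46 and -0.51. The block before them on that chromosome, from COPS3 to UBBP4, had 0.22. On chromosome 14 the first block, from CCNB1IP1 to PCK2, had -0.57, with 1 of 30 above 0, and the second -0.24. On chromosome 18 the run from FHOD3 to NARS1 had -0.44, while the first block of that chromosome had 0.10. Higher runs outside chromosome 13 were found on chromosome 2, such as NRP2 to TMBIM1 with 0.37 and 28 of 30 above 0. The medians of the same blocks under normoxia, from separate arrays, were close to those under hypoxia, for example -0.50 for ANKRD13B to AP2B1, -0.48 for CCNB1IP1 to PCK2, -0.41 for FHOD3 to NARS1 and 0.30 for NRP2 to TMBIM1. Across the 307 blocks Pearson's r between the conditions was 0.95, a description over blocks that share the arrays of each condition and the cells. Arrays with the same replicate number also deviated together between the oxygen conditions, with a correlation over clusters of 0.60 in VHL- and 0.27 in VHL+ cells after quantile normalization.

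**Figure D4:**
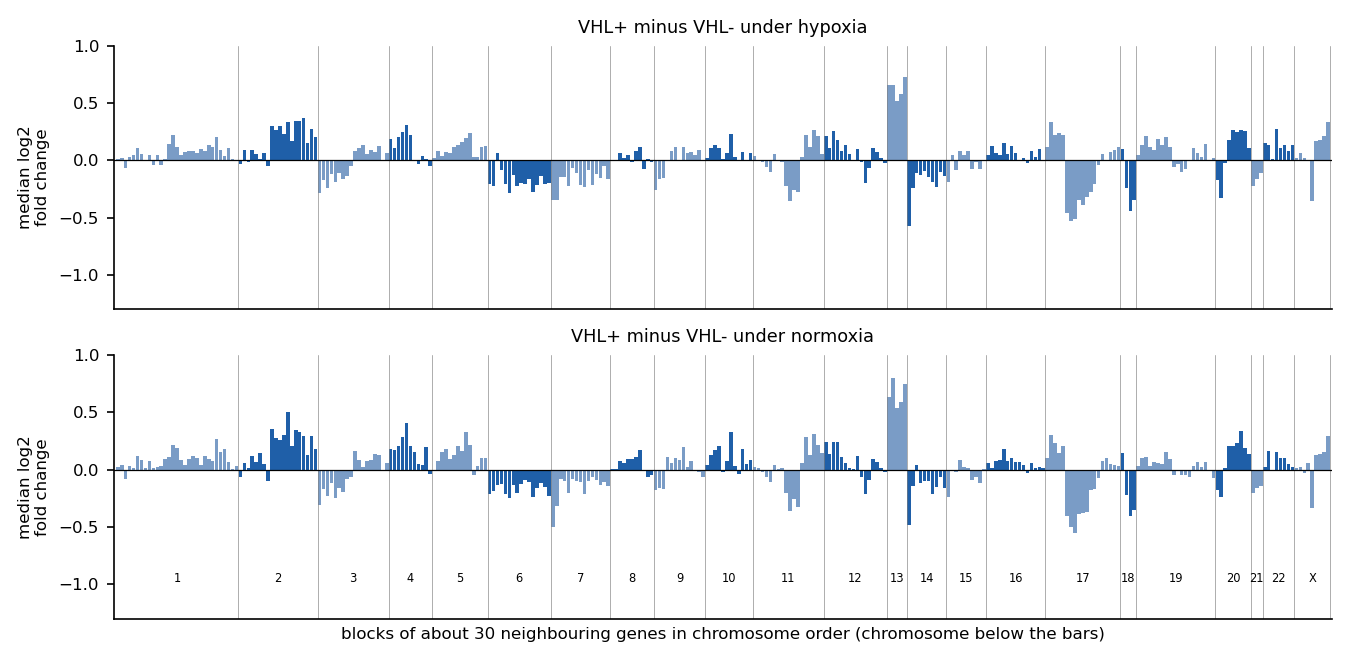
Median log2 fold change of VHL+ against VHL- cells after quantile normalization (vertical axes) in 307 blocks of neighbouring genes in chromosome order, under hypoxia (top) and under normoxia (bottom). The 5 blocks of chromosome 13 stand at 0.52 to 0.72 under hypoxia, and runs on chromosomes 14, 17 and 18 reach -0.57, -0.53 and -0.44.

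Several genes named above lie in these runs, and their values stand beside those of their neighbours. COL4A1 and COL4A2 lie in the last block of chromosome 13, whose median was 0.72, against 2.00 and 1.62 for the 2 genes after quantile normalization. RB1 and SUCLA2 had 0.94 and 0.47 in a block with 0.52. PCK2 had -1.22 and RBM23 1.94 in the chromosome 14 block with -0.57, and KRT19 -2.98 in a chromosome 17 block with -0.34. ACACA, a fall after quantile normalization, lies in the chromosome 17 block with -0.51. TCF4, a fall in both sets, lies in the chromosome 18 block with -0.44, and L1CAM, which rose, in a chromosome X block with 0.33. The respiratory chain rises NDUFS1, COX5B and NDUFB3 lie in chromosome 2 blocks with 0.37, 0.30 and 0.34. IDH1 and NFE2L2, which rose as deposited, lie in chromosome 2 blocks with 0.37 and 0.34. DNAJC15, which fell by 2.24, is on chromosome 13 but has too low a mean signal to be in a block. VHL lies in the first block of chromosome 3, which had a median of -0.29, HIF1A in a chromosome 14 block with -0.09 and GSTP1 in a chromosome 11 block with -0.26. In that last block the median deviations were -0.09 and 0.35 in the VHL- arrays and -0.12 and -0.10 in the VHL+ arrays under hypoxia, so that the second VHL- array alone stood apart, as it did under normoxia (-0.06 and 0.26 in VHL-, -0.09 and -0.19 in VHL+). The share of any single gene's change that goes with its neighbours was not tested.

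**Figure D5:**
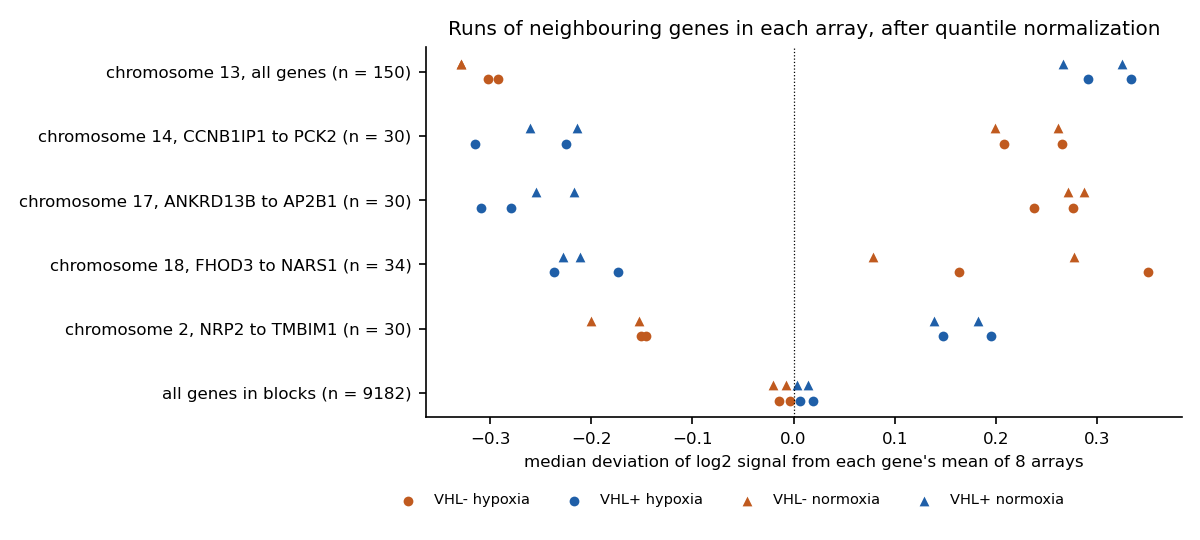
Median deviation of the log2 signal from each gene's mean over the 8 arrays, after quantile normalization (horizontal axis), for chromosome 13, 4 blocks and all genes in blocks, 1 point per array (circles hypoxia, triangles normoxia, orange VHL-, blue VHL+). On chromosome 13 the VHL- arrays sit between -0.33 and -0.29 and the VHL+ arrays between 0.27 and 0.33, while over all 9182 genes every array lies within -0.02 and 0.02.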

How the data were processed

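Gene expression was measured on Affymetrix Human Gene 1.0 ST arrays, 1 per sample. The authors summarised the scanned probe signals with RMA in Partek, and the deposited series matrix holds the resulting log2 signals per transcript cluster. The number of arrays limits the precision. Groups and replicate numbers came from the sample labels, and the oxygen level from the study's methods. All 8 arrays in 4 groups were fitted together with limma (version 3.58.1, R 4.3.3; 4 residual and 14.0 prior degrees of freedom), with contrasts of VHL+ against VHL- cells under hypoxia, under normoxia, and of their difference. P values were adjusted by Benjamini-Hochberg over 33297 transcript clusters at a threshold of 0.05. Symbols came from the platform annotation, and clusters with several symbols (1754) or none (12083) were not named. The fit was repeated after quantile normalization of the deposited log2 signals, and the scripts were tested on simulated data. The alternatives were median centring, a replicate block, the hypoxia arrays alone, trend and robust estimation, a filter on dim clusters, clusters with 1 symbol, the methods' one-way test, and each array left out in turn, which leaves a lone sample that is assumed to vary like the other groups.

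Named genes were the 15 largest rises and falls among genes that passed as deposited and after quantile normalization without overlap of the arrays, up to 6 called members of each of 34 gene lists (688 of 761 listed genes were measured), the oxygen sensing list, and genes that the study measured otherwise. Further members, EDN2, APOL1, EFHD2 and MIR21 were chosen after their values were seen. The members, the lists and the rule were chosen with earlier results of these data known. Gene order, promoters and the mature microRNA came from RefSeq tables of GRCh38.p14.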

Additional observations from a re-analysis of the deposited data

Results flagged for a closer look

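The VHL effect was higher under hypoxia than under normoxia, by the test of the difference, in 2 transcript clusters without a single gene symbol as deposited and in none after quantile normalization. APOL1 went up in both VHL+ arrays under hypoxia (log2 fold change 1.00) and had -0.42 under normoxia, with a difference of 1.42 between the conditions that did not pass the test (adjusted p = 0.0995 as deposited and 1.00 after quantile normalization).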

How the results depend on the processing

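None of the 156 called genes changed direction under any alternative. Of the genes that were not called, 15 changed sign under at least 1 alternative, 7 of them with quantile normalization, such as CITED2, CUL2, EGLN1, HIF1AN and HIF3A. As deposited, 3437 of all transcript clusters passed as higher and 436 as lower in VHL+ cells under hypoxia. Median centring gave 849 higher, and quantile normalization 920 higher and 911 lower. The methods' one-way test was run here on the 2 hypoxia groups alone, which need not match how the study ran it. It gave 368 higher and 32 lower at the methods' unadjusted threshold, and 1 and 0 after Benjamini-Hochberg adjustment. Leaving out each array in turn gave 175 to 4549 higher and 81 to 614 lower. The log2 fold change of VHL did not pass with median centring (0.57) or with the one-way test (0.75), and with each array left out it ran from 0.61 to 0.89. Of 180 named genes, 156 of them called, 49 calls were lost after quantile normalization, 104 without the first VHL+ hypoxia array, 96 without the second, and 21 and 12 without the first and second VHL- hypoxia array. The cause was not tested. For the difference between the oxygen conditions, 2 clusters were higher and 0 lower as deposited. The first count was 0 with clusters of 1 symbol, median centring, quantile normalization or a filter on dim clusters, 87 with trend and robust estimation (2 lower), and 0 to 193 (0 to 15 lower) with each array left out. Combinations were added after seeing the data. Quantile normalization without the first or second VHL+ hypoxia array gave 170 and 145 higher and 183 and 176 lower, with 0.54 and 0.42 for VHL. Without the first or second VHL- hypoxia array it gave 296 and 371 higher and 381 and 426 lower, with 0.44 and 0.52 for VHL, and VHL passed in none of these. For the difference it gave 0 to 2 higher and 0 to 2 lower.

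The labels do not say that a replicate number marks a shared culture or day. The correlation of replicate differences as deposited was 0.60 between the VHL- groups, 0.31 between the VHL+ groups and 0.17 between the hypoxia groups, and 0.05 to 0.21 between the other groups, so that numbers went together within a line and not in every pair of groups. With a replicate block, 4352 clusters were higher and 638 lower under hypoxia, and 86 higher and 12 lower for the difference. The replicate block together with quantile normalization gave 1381 higher and 1352 lower under hypoxia, and 0 higher for the difference. No named gene lost its call with the block alone, and 1 gained one.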
